A study of Mus musculus with 6 samples.

Results

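The 33 genes described here encode the folding and export machinery of the endoplasmic reticulum (ER): chaperones, disulfide isomerases, the alpha subunits of prolyl 4-hydroxylase, the protein translocation channel and its partners, and factors of ER-associated degradation. They were chosen by name from a list of mouse symbols, with earlier results of these data known, so comparisons with all genes are descriptive. All 33 were found among the 56748 genes of the count tables, and all 33 passed the filter on low counts, which left 18514 genes for testing. The RNA came from tibiae of female mice aged 12 weeks. The samples comprise 3 of the genotype Col1a1+/- (heterozygous for the gene of the alpha 1 chain of type I collagen) and 3 of wild type, and no treatment is named for either genotype. The bones were emptied of marrow, frozen and disrupted whole, and libraries were made from polyadenylated RNA. Nothing in the labels describes the allele or tells whether the samples are different animals. The p-values therefore reflect the spread between these samples alone, which may be technical.

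Secreted and membrane proteins enter the ER through the Sec61 channel, fold there with the help of chaperones of the Hsp70 and Hsp90 families, receive disulfide bonds from isomerases, and are handed to the cytosol for destruction when they fail to fold. Procollagen uses this machinery heavily. Prolyl 4-hydroxylase modifies its prolines so that the triple helix is stable at body temperature, and that enzyme is a tetramer of alpha subunits with the disulfide isomerase P4hb as its beta subunit. In bone the main procollagen producers are osteoblasts. When unfolded protein accumulates, the unfolded protein response raises many of these genes through the transcription factors ATF6 and XBP1, which act through ER stress elements in promoters.

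Libraries held 26830644 to 32379684 counted reads. Levels are given as CPM, read counts scaled to a common library size after TMM adjustment, which sets libraries level on the bulk of their genes. Col1a1 itself had 61150, 52880 and 59600 CPM in Col1a1+/- replicates 1, 2 and 3, against 36810, 61350 and 54800 CPM in the wild-type replicates, so its level did not part the genotypes (log2 fold change 0.18, edgeR adjusted p = 0.78). Its ratio to Col1a2 did, at 0.775 to 0.836 in Col1a1+/- libraries, against 1.25 to 1.32 in wild type. Col1a2 had 73120, 68190 and 72430 CPM in Col1a1+/- and 27900, 49100 and 43110 CPM in wild type. The genotypes did not overlap for Col1a2 (log2 fold change 0.83, edgeR adjusted p = 0.159). Markers of other cell types differed between the genotypes. The 24 skeletal muscle markers took 1.83% to 3.78% of reads in Col1a1+/- and 5.82% to 7.47% in wild type, and the 12 osteoblast markers took 1.15% to 1.29% in Col1a1+/- against 0.555% to 0.671% in wild type. Wild-type replicate 1 stood apart in neutrophil markers, with 0.591% of reads against 0.0984% to 0.164% in the other 5 libraries. In whole bone, fewer cells of a type and less RNA per cell cannot be told apart.

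Taken as a list, the ER genes leaned higher in Col1a1+/- tibia, and the calls fell on isomerases, a prolyl hydroxylase subunit and the chaperone partner Manf. By edgeR 5 of 33 rose at an adjusted p under 0.05 (Pdia5, Manf, P4ha1, Pdia4 and Txndc5), where 1.43% of all tested genes were called higher. No member was called lower by edgeR, DESeq2 or limma-voom, where edgeR called 2.91% and DESeq2 7.93% of all genes lower. At an unadjusted edgeR p under 0.05 there were 17 members higher and 0 lower, against 9.59% of all genes higher and 13.2% lower. The log2 fold change was above 0 for 29 members, with a median of 0.35 (quartiles 0.16 and 0.50), against a median of -0.01 over all tested genes. For 22 members every Col1a1+/- library lay above every wild-type library, which held for 14.0% of all genes, and for 0 members below, which held for 14.5%. DESeq2 called 13 members higher, among them the same 5, where it called 4.26% of all genes higher. All 33 genes together took 0.593%, 0.554% and 0.725% of reads in Col1a1+/- replicates 1, 2 and 3 and 0.523%, 0.435% and 0.404% in the wild-type replicates.

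**Figure D1:**
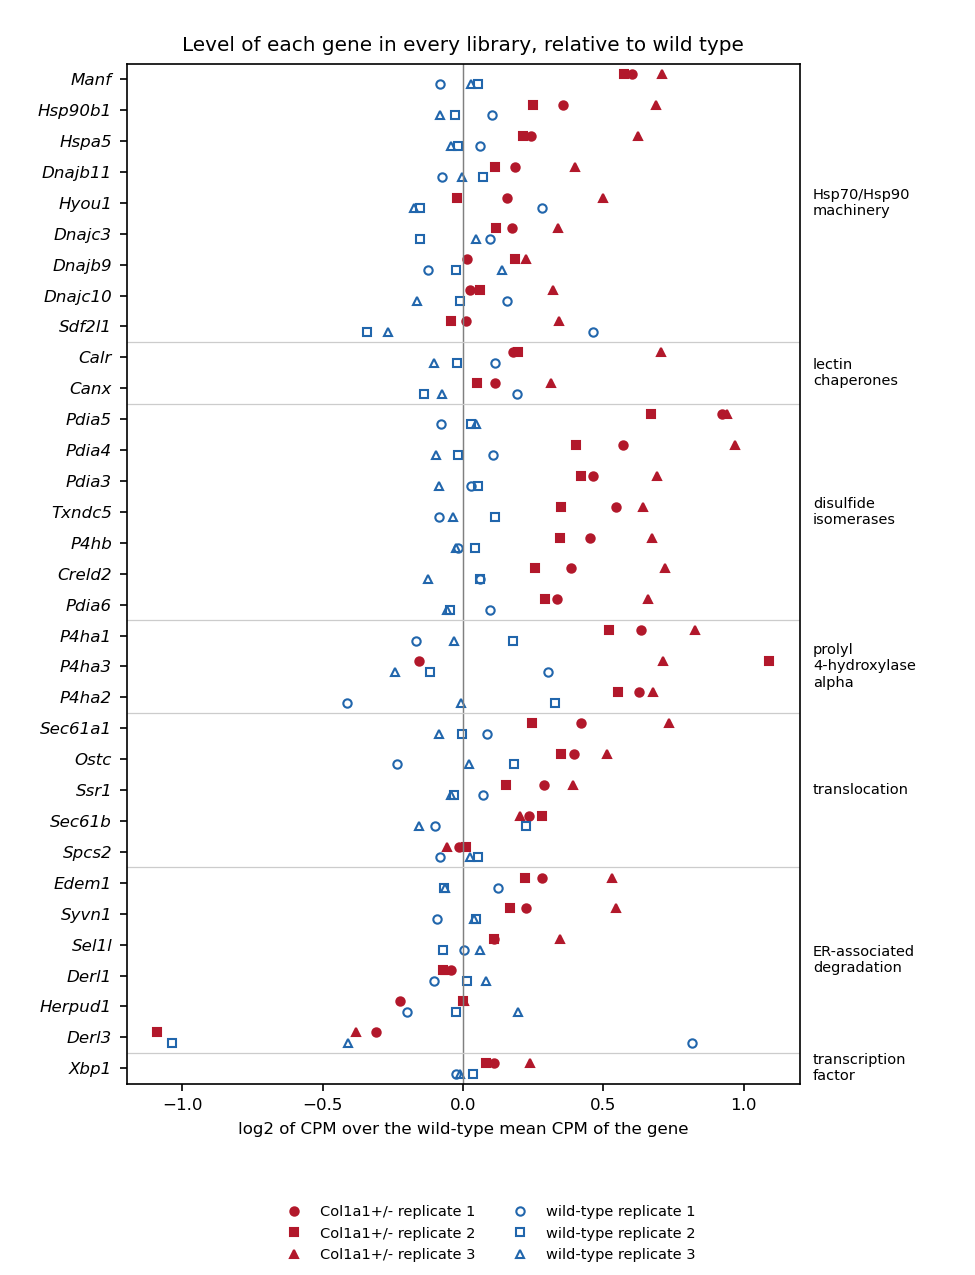
Level of each of the 33 genes in every library, as log2 of its CPM over the wild-type mean of that gene (x axis), with genes grouped by role down the page; filled red points are Col1a1+/- libraries and open blue points wild-type libraries, and the marker shape gives the replicate. The 7 disulfide isomerases show no overlap between genotypes, whereas Spcs2, Derl1 and Herpud1 overlap, and Col1a1+/- replicate 3 is the rightmost red point for 28 genes.

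The number of calls rested on single libraries. By edgeR 0 members were called without Col1a1+/- replicate 1 or 3, where 0 and 0.166% of all genes were called higher, and 0 without wild-type replicate 2 or 3, where 0.00522% and 0 of all genes were. The loss of calls was thus shared by the other genes. At an unadjusted p under 0.05 those fits had 18 and 13 members higher without the Col1a1+/- libraries, beside 7.82% and 7.19% of all genes, and 15 members each without the wild-type libraries, beside 8.63% and 7.14%. DESeq2 called 8 and 7 members without those Col1a1+/- libraries (2.37% and 2.25% of all genes) and 9 and 7 without those wild-type libraries (3.72% and 2.35%), with the same 5 genes among them each time. Without Col1a1+/- replicate 2 edgeR called 5 members and 0.874% of all genes higher, and without wild-type replicate 1 it called 12 members and 3.12% of all genes. Col1a1+/- replicate 3 was the highest library of its genotype for 28 members and the highest of all 6 for 26, at a median of 1.19 times the mean of the other Col1a1+/- libraries. It was also the library with the least muscle RNA (1.83% of reads), the lowest mean log2 CPM of the muscle markers (7.002) and the most reads of osteoblast markers (1.29%); the part of these in the result was not tested. Without it the median of the 33 fold changes was 0.25.

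Among the chaperones of the Hsp70 and Hsp90 systems, 1 of 9 rose, all 9 fold changes were above 0, and the median was 0.23. The gene that rose was Manf (ENSMUSG00000032575; chromosome 9, 106715511 to 106769178, GRCm39, minus strand), which encodes a small secreted and ER-resident protein that binds the Hsp70 chaperone BiP. Manf stood at 110.0, 108.1 and 118.5 CPM in Col1a1+/- and at 68.5, 75.2 and 73.9 CPM in wild type. Every Col1a1+/- library was above every wild-type one, and the spread within a genotype was small beside the gap. The fold was 1.55 (log2 fold change 0.63, SE 0.10, edgeR adjusted p = 0.0238; 0.0107 to 0.119 with 1 library left out). Of the exon length of Manf 9.25% is shared with a gene on the opposite strand, and reads there were not counted for either gene.

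Hspa5 encodes BiP, the central ER chaperone and the usual readout of the unfolded protein response. It had 447.1, 439.2 and 583.4 CPM in Col1a1+/- and 394.4, 373.6 and 366.9 CPM in wild type. The genotypes did not overlap, but replicate 3 carried much of the gap, and the gene did not pass the threshold (log2 fold change 0.37, SE 0.15, edgeR adjusted p = 0.171). Hsp90b1, the ER member of the Hsp90 family, stood at 343.1 ± 56.1 CPM in Col1a1+/- libraries, against 252.2 ± 16.8 CPM in wild type (SD, n = 3 each; log2 fold change 0.44, edgeR adjusted p = 0.106). Its adjusted p was 0.038 by DESeq2, and 15.67% of its exon length is shared with another gene, so reads there were left out.

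Of the co-chaperones, Dnajb11 stood at 0.24 on the log2 fold scale and Dnajc3, which also inhibits the translation-control kinases, at 0.21. Dnajb9 and Dnajc10 were at 0.15 and 0.14, and Hyou1, the nucleotide exchange factor of BiP, at 0.23. None of these passed, with edgeR adjusted p between 0.237 and 0.553. Sdf2l1, a partner of the J-domain proteins that keeps clients soluble, had the smallest fold change of these 9 genes (0.11). It had 23.4, 22.5 and 29.4 CPM in Col1a1+/- and 32.0, 18.3 and 19.3 CPM in wild type, and its highest library was wild-type replicate 1. Without that library its fold change was 0.45, above those of Hspa5 (0.43) and Hyou1 (0.42) in the same fit, and over all libraries left out in turn it ran from -0.03 to 0.45.

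Matches to ER stress elements in the members' promoters are shown here because ATF6 and XBP1 are known to act through them. A match is only a description of the letters present. RefSeq promoter windows on GRCm38.p6, from 250 bases before to 50 after each start, were at hand for 28 of the 33 genes. They were searched on both strands for the ER stress element (ERSE, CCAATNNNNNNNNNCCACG), the related ERSE-II (ATTGGNCCACG) and the core TGACGTGG of another element bound by XBP1 and ATF6. Manf, Hyou1, Derl1, Sec61a1 and Ostc had no window and were not searched. ERSE was found for 9 of 28 members (32.1%), against 37 of 27025 genes with a window (0.137%). ERSE-II was found for 2 members, Herpud1 and Dnajb11, against 12 of 27025 genes (0.0444%). TGACGTGG was found for 1 member, Txndc5, against 193 genes (0.714%), and no member held both it and an ERSE or ERSE-II match. Hsp90b1 held 2 copies of ERSE on opposite strands. In the stretches below the capitals mark the matched element, each line reads 5′ to 3′ along its gene, and an element on the opposite strand therefore reads CGTGG first.
Hspa5 (chr2:34772005-34772063, plus strand): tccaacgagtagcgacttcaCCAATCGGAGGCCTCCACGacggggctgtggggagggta
Hsp90b1, far copy (chr10:86705618-86705676, minus strand): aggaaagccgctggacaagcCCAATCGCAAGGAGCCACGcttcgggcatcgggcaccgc
Hsp90b1, near copy (chr10:86705513-86705571, minus strand): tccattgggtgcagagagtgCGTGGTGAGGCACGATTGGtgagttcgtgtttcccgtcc
Dnajc3 (chr14:118937807-118937865, plus strand): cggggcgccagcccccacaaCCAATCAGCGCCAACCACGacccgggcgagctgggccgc
Calr (chr8:84847055-84847113, minus strand): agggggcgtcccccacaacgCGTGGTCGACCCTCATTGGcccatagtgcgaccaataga
Canx (chr11:50325780-50325838, minus strand): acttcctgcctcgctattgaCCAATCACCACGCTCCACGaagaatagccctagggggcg
Pdia6 (chr12:17266471-17266529, plus strand): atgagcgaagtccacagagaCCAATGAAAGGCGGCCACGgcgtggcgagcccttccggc
Creld2 (chr15:88819500-88819558, plus strand): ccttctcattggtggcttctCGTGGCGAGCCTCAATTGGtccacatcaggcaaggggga
Syvn1 (chr19:6046512-6046570, plus strand): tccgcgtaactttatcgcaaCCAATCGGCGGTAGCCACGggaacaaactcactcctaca
Derl3 (chr10:75893222-75893280, plus strand): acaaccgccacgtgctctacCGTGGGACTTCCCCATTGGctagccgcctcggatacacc
Herpud1, ERSE-II (chr8:94386357-94386407, plus strand): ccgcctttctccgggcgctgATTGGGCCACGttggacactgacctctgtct

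The elements before the start lay with their nearer end 25 bases (Syvn1) to 193 bases (far copy of Hsp90b1) ahead of it, and that of Dnajb11 lay just behind it. The 11 members with an ERSE or ERSE-II match had a median log2 fold change of 0.32 with 0 called by edgeR, 5 higher at an unadjusted p under 0.05 and 3 called by DESeq2 (Hsp90b1, Pdia6 and Creld2). The 17 members with a window and no match had a median of 0.35, with 4 called by edgeR (Pdia4, Pdia5, Txndc5 and P4ha1), 9 higher at an unadjusted p under 0.05 and 7 called by DESeq2. Manf, called by edgeR and DESeq2, and Sec61a1 and Ostc, called by DESeq2, had no window and are in neither class. These values describe the members, and the difference between the classes was not tested.

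**Figure D2:**
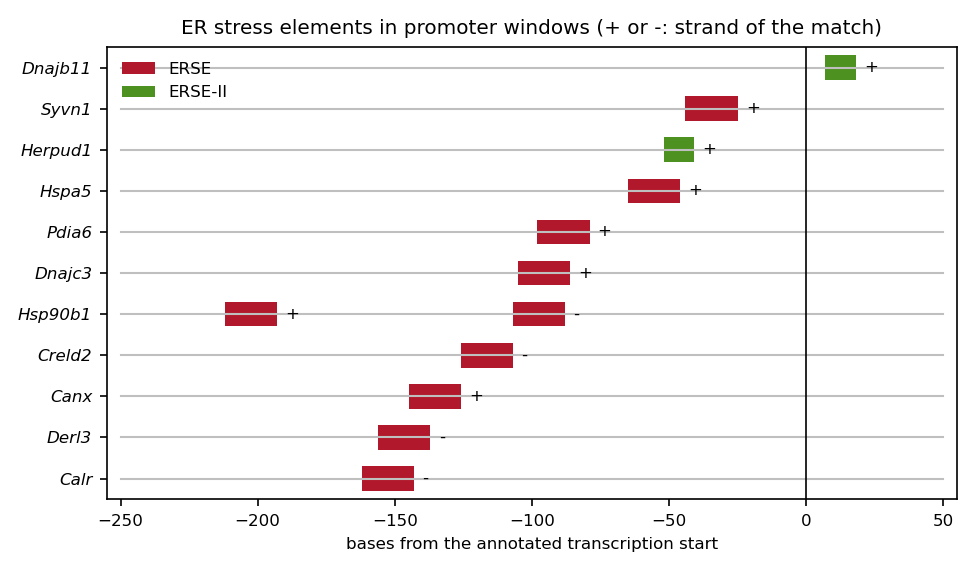
Position of ERSE (red) and ERSE-II (green) matches in the promoter windows of the 11 genes that hold one, in bases from the annotated transcription start (x axis, 0 is the start), 1 gene per row; plus and minus give the strand of the match relative to the gene. The matches before the start end 25 to 193 bases ahead of it, and the ERSE-II match of Dnajb11 lies after it.

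The lectin chaperones calreticulin (Calr, soluble) and calnexin (Canx, bound to the membrane) hold newly made glycoproteins until they fold, and neither passed the threshold. Calr had 589.6, 596.9 and 848.6 CPM in Col1a1+/- and 563.2, 513.6 and 485.0 CPM in wild type. The genotypes did not overlap, with replicates 1 and 2 of Col1a1+/- close to the highest wild-type library and replicate 3 far above (log2 fold change 0.38, SE 0.17, edgeR adjusted p = 0.233). Canx overlapped between genotypes, at 246.9 ± 24.0 CPM in Col1a1+/- libraries, against 220.5 ± 27.8 CPM in wild type (SD, n = 3 each; edgeR adjusted p = 0.518).

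Disulfide isomerases were the role with the most calls: 3 of 7 rose by edgeR and all 7 were higher by DESeq2. None of the 7 overlapped between genotypes, and the median log2 fold change was 0.52. Pdia5 (ENSMUSG00000022844; chromosome 16, 35217682 to 35311243, GRCm39, minus strand) had the highest fold change of the 33 genes. It encodes an isomerase of the thioredoxin family. Its levels were 41.1, 34.5 and 41.6 CPM in Col1a1+/- and 20.5, 22.1 and 22.4 CPM in wild type, and the lowest Col1a1+/- library was well above the highest wild-type one. The fold was 1.80 (log2 fold change 0.85, SE 0.12, edgeR adjusted p = 0.0208; 0.00798 to 0.119 with 1 library left out).

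Pdia4 (ENSMUSG00000025823; chromosome 6, 47773075 to 47790364, GRCm39, minus strand) encodes ERp72, an isomerase with several thioredoxin-like domains. It had 122.2, 108.7 and 160.8 CPM in Col1a1+/- and 88.6, 81.1 and 76.9 CPM in wild type. The genotypes were apart, with replicate 3 again the highest (1.59-fold; log2 fold change 0.67, SE 0.15, edgeR adjusted p = 0.0458; 0.0251 to 0.145 with 1 library left out).

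Txndc5 (ENSMUSG00000038991; chromosome 13, 38684055 to 38712800, GRCm39, minus strand), an isomerase known from fibroblasts as a promoter of collagen folding, had 195.6, 170.9 and 209.1 CPM in Col1a1+/- and 126.3, 144.9 and 130.8 CPM in wild type. Again no library of the 2 genotypes overlapped (1.43-fold; log2 fold change 0.52, SE 0.12, edgeR adjusted p = 0.046; 0.0294 to 0.158 with 1 library left out). A gene on the opposite strand shares 11.91% of its exon length.

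**Figure D3:**
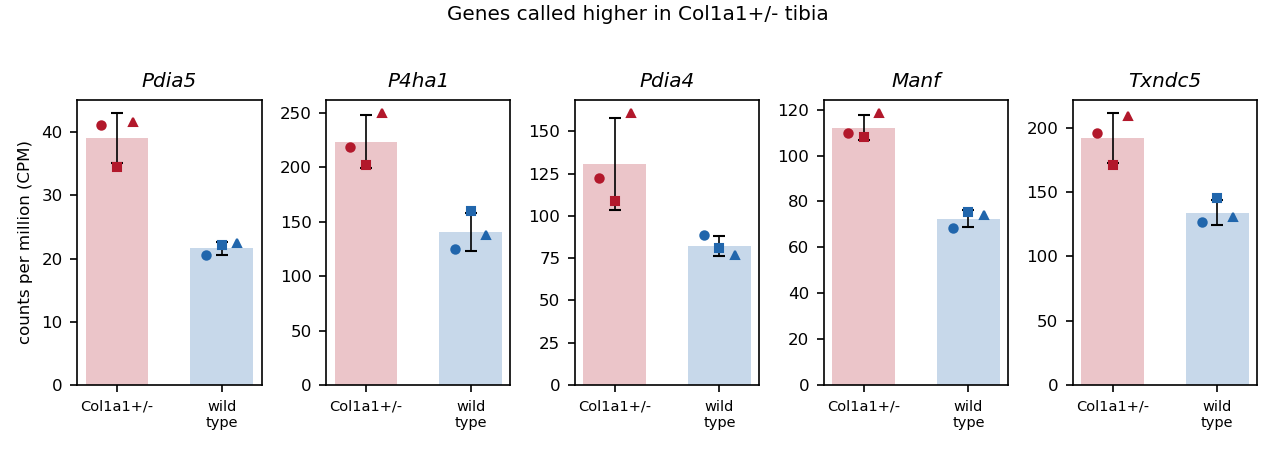
CPM of the 5 genes called higher in Col1a1+/- tibia, each panel with its own y axis from 0; points are libraries (circle, square and triangle for replicates 1, 2 and 3), bars are means and whiskers the SD over 3 libraries. In each panel the lowest Col1a1+/- library (left) lies above the highest wild-type library (right).

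The other isomerases missed the threshold. P4hb, the beta subunit of prolyl 4-hydroxylase and the most abundant of the 33 genes per exon length, had 730.5, 678.5 and 853.2 CPM in Col1a1+/- and 527.7, 550.3 and 524.9 CPM in wild type. The wild-type libraries lay close together and all below the lowest Col1a1+/- library (log2 fold change 0.50, SE 0.14, edgeR adjusted p = 0.0757; DESeq2 adjusted p = 0.00275). Pdia3, which works with the lectin chaperones on glycoproteins, averaged 487.3 ± 50.4 CPM in Col1a1+/- libraries, against 337.6 ± 17.3 CPM in wild type (SD, n = 3 each; log2 fold change 0.53, edgeR adjusted p = 0.0547). Pdia6 and Creld2, a stress-induced secreted ER protein, were at log2 fold changes of 0.44 and 0.47 (edgeR adjusted p = 0.086 and 0.0801).

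Of the 3 alpha subunits of prolyl 4-hydroxylase, which carry the catalytic site, P4ha1 rose, and the others had fold changes of like size with more spread. P4ha1 (ENSMUSG00000019916; chromosome 10, 59159118 to 59209126, GRCm39, plus strand), the most abundant of them, had 218.5, 201.5 and 249.6 CPM in Col1a1+/- and 125.2, 159.3 and 137.4 CPM in wild type. The genotypes did not overlap (1.59-fold; log2 fold change 0.67, SE 0.13, edgeR adjusted p = 0.0342; 0.0194 to 0.131 with 1 library left out).

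P4ha2 had 116.8, 110.9 and 120.8 CPM in Col1a1+/- and 56.7, 94.8 and 75.1 CPM in wild type. Its Col1a1+/- libraries were close together and its wild-type libraries spread widely, and it did not pass (log2 fold change 0.62, SE 0.17, edgeR adjusted p = 0.0706; DESeq2 adjusted p = 0.0129). P4ha3 had 10.4, 24.7 and 19.0 CPM in Col1a1+/- and 14.3, 10.7 and 9.8 CPM in wild type, so the genotypes overlapped (log2 fold change 0.64, SE 0.31, edgeR adjusted p = 0.267). Its fold change was 0.93 without Col1a1+/- replicate 1, where DESeq2 called it (adjusted p = 0.0124) and edgeR did not (adjusted p = 0.14), and 0.35 without Col1a1+/- replicate 2.

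Balances between partner genes were compared as ratios of reads per kilobase of exon within a library, which no scaling of libraries can move. With 3 libraries against 3 the exact two-sided permutation test cannot go below 0.1, and all 6 ratios overlapped between genotypes. The ratio of P4ha2 to P4ha1 was 0.345 ± 0.0229 in Col1a1+/- libraries, against 0.350 ± 0.0475 in wild type (mean ± SD of 3 libraries here and below; exact permutation p = 0.9). That of P4ha3 to P4ha1 was 0.108 ± 0.0497 in Col1a1+/- libraries, against 0.110 ± 0.0343 in wild type (exact permutation p = 1). The 3 alpha subunits summed to 0.299 ± 0.0137 of P4hb in Col1a1+/- and 0.267 ± 0.0296 in wild type (exact permutation p = 0.3). Hsp90b1 stood at 0.735 ± 0.0211 of Hspa5 in Col1a1+/- and 0.699 ± 0.0199 in wild type, and Canx at 0.227 ± 0.0259 of Calr in Col1a1+/- libraries, against 0.260 ± 0.0183 in wild type (exact permutation p = 0.2 for both). The small channel subunit Sec61b stood at 2.68 ± 0.514 times Sec61a1 in Col1a1+/- and 3.10 ± 0.470 times in wild type (exact permutation p = 0.4). Adjusted over the 6 ratios by the Benjamini-Hochberg method, the exact permutation p-values were 0.6 to 1.

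Of the 5 translocation genes 0 were called by edgeR (3 at an unadjusted p under 0.05, all higher) and 2, Sec61a1 and Ostc, by DESeq2. The median log2 fold change was 0.28. Sec61a1, the pore-forming subunit of the channel, had 150.7, 133.6 and 187.2 CPM in Col1a1+/- and 119.3, 112.3 and 106.0 CPM in wild type, with no overlap (log2 fold change 0.48, SE 0.14, edgeR adjusted p = 0.0759). Another gene shares 8.16% of its exon length. Ostc, a subunit of the oligosaccharyltransferase that sits at the channel, had 173.6, 167.9 and 188.1 CPM in Col1a1+/- and 112.1, 149.6 and 134.0 CPM in wild type, again with no overlap (log2 fold change 0.42, edgeR adjusted p = 0.0902).

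Sec61b had 77.5, 80.0 and 75.8 CPM in Col1a1+/- and 61.4, 77.0 and 59.1 CPM in wild type. A single wild-type library, replicate 2, reached the Col1a1+/- range (log2 fold change 0.24, edgeR adjusted p = 0.271). Ssr1, of the translocon-associated protein complex, was at 0.28 (edgeR adjusted p = 0.18). Spcs2, a subunit of the signal peptidase that trims the leader from new proteins, was at -0.02 with SE 0.09 (edgeR adjusted p = 0.929), with 117 ± 2.71 CPM in Col1a1+/- libraries, against 119 ± 5.89 CPM in wild type.

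The 6 genes of ER-associated degradation had a median log2 fold change of 0.07, with 0 called by edgeR (2 at an unadjusted p under 0.05, both higher) and 0 by DESeq2. Herpud1, which recruits the degradation complex and is strongly induced by ER stress, had 91.1, 106.6 and 106.7 CPM in Col1a1+/- and 92.8, 104.6 and 122.0 CPM in wild type. The genotypes overlapped throughout (log2 fold change -0.07, SE 0.13, edgeR adjusted p = 0.8). Derl1, a channel component, was at -0.06 (SE 0.10, edgeR adjusted p = 0.773).

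Edem1, which marks misfolded glycoproteins by trimming mannose, was at 0.35, and Syvn1, the ubiquitin ligase Hrd1, at 0.32, while its adaptor Sel1l was at 0.19 (edgeR adjusted p = 0.118, 0.156 and 0.318). Of the exon length of Syvn1 11.07% is shared with a gene on the opposite strand. Derl3 was the lowest of the 33 genes, with 26, 13 and 21 reads in Col1a1+/- and 55, 13 and 21 reads in wild type (log2 fold change -0.56, SE 0.53, edgeR adjusted p = 0.586). Its level of 1.70 CPM in wild-type replicate 1, against 0.454 to 0.779 CPM in the other libraries, came in the library with 0.591% of reads from neutrophil markers. Without that library the fold change was 0.17, and with an erythroid and neutrophil marker score as a covariate it was 0.37, so its direction rested on that library (edgeR adjusted p = 0.879 and 0.837). Derl3 is prominent in plasma cells. Their markers took 0.0190% to 0.0235% of reads in Col1a1+/- and 0.0156% to 0.0230% in wild type, led by Sdc1 and Igkc. Of the 8 markers 7 passed the filter on low counts. Among wild-type libraries Jchain, Igkc and Irf4 were highest in replicate 1, Sdc1, Prdm1 and Igha were lowest there, and Mzb1 lay between. Igkc had 62.5 CPM in that library, against 19.2 and 32.3 CPM in wild-type replicates 2 and 3. Jchain had 24.6 CPM in it, against 4.49 and 10.3 CPM. In Col1a1+/- replicate 1 Igkc had 61.6 CPM and Jchain 21.3 CPM. The part of plasma cells in the Derl3 level was not tested.

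Xbp1, the transcription factor whose spliced form drives much of the degradation and translocation programme, had 178.3, 174.9 and 195.1 CPM in Col1a1+/- and 162.6, 169.3 and 164.1 CPM in wild type. The groups did not overlap but lay close together (log2 fold change 0.14, SE 0.10, edgeR adjusted p = 0.447). Counts per gene do not part the spliced from the unspliced form.

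Levels across the list covered a wide range per exon length. P4hb stood at 264 ± 31.4 CPM per kilobase of exon in Col1a1+/- and 187 ± 4.87 in wild type, and Calr, next in order, at 236 ± 51.2 in Col1a1+/- libraries, against 181 ± 13.7 in wild type, so these neighbours did not differ beyond their spread in either genotype. Pdia3 followed at 155 ± 16.1 in Col1a1+/- libraries, against 108 ± 5.51 in wild type, then Hspa5 at 116 ± 19.2 against 89.4 ± 3.40 in wild type (SD, n = 3 each). At the other end stood Pdia5 at 14.1 ± 1.44 in Col1a1+/- against 7.82 ± 0.370 in wild type, P4ha3 at 5.76 ± 2.30 against 3.69 ± 0.760 in wild type, and Derl3 at 0.330 ± 0.0892 against 0.486 ± 0.327 in wild type. The median coefficient of variation between libraries was 10.5% in Col1a1+/- and 7.2% in wild type.

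**Figure D4:**
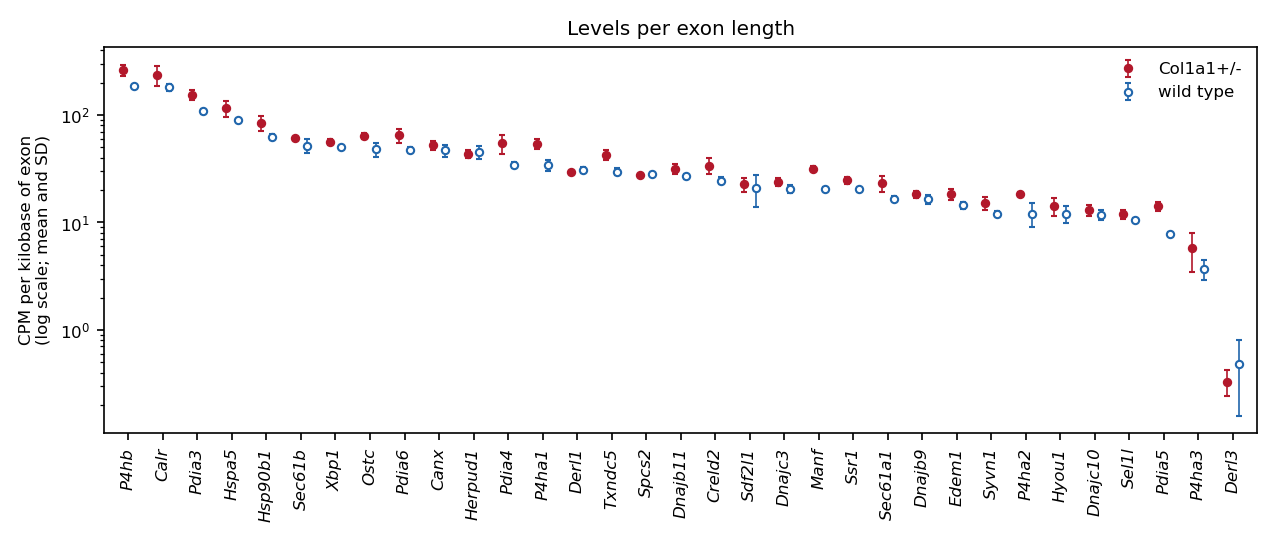
Mean level of each gene in CPM per kilobase of exon (y axis, log scale) with the SD over 3 libraries, Col1a1+/- filled red and to the left, wild type open blue, in the order of the wild-type level. P4hb and Calr lead at 264 and 236 in Col1a1+/-, against 187 and 181 in wild type, and Derl3 lies below 1 in both.

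Osteoblast markers moved with these genes. All 12 of the osteoblast list had no overlap between genotypes and 9 rose by edgeR, with a median log2 fold change of 0.74, above that of every role here. Summed member reads per read of the osteoblast markers were 0.495, 0.483 and 0.564 in Col1a1+/- replicates 1, 2 and 3 and 0.940, 0.649 and 0.727 in the wild-type replicates. Every Col1a1+/- library was thus lower, the reverse of the order of the shares of all reads. Ibsp held the most reads of the 12 markers, followed by Bglap, so the summed marker reads lean on these genes. Log2 fold changes of the markers ran from 0.47 to 1.09, and Ibsp had the highest. Whether the order holds with Ibsp or Bglap left out of the sum was not tested. The markers' own share of reads was 1.15% to 1.29% in Col1a1+/-, against 0.555% to 0.671% in wild type. A list that rose less than the markers is therefore lower by this measure. How many of all genes were lower per marker read was not counted, but scaling on the markers called 65.4% of all genes lower. Each of the 7 roles was also lower per osteoblast marker read in every Col1a1+/- library. The gap was narrowest for the prolyl 4-hydroxylase alpha subunits, with 0.0304 ± 0.00135 in Col1a1+/- libraries, against 0.0370 ± 0.00164 in wild type, and for Xbp1 it was 0.0155 ± 0.000395 in Col1a1+/-, against 0.0273 ± 0.00449 in wild type (SD, n = 3 each).

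With libraries scaled on the 12 osteoblast markers in place of TMM, the median of the 33 fold changes was -0.46, against -0.81 for all tested genes. Then 0 members were called higher (0.108% of all genes were) and 14 lower, where 65.4% of all genes were called lower. Those 14 comprised 5 of 6 degradation genes, 4 of 9 of the Hsp70 and Hsp90 machinery, 3 of 5 translocation genes, Canx and Xbp1. None of the isomerases or alpha subunits was among them, and Pdia5 alone stayed above 0, at 0.06.

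**Figure D5:**
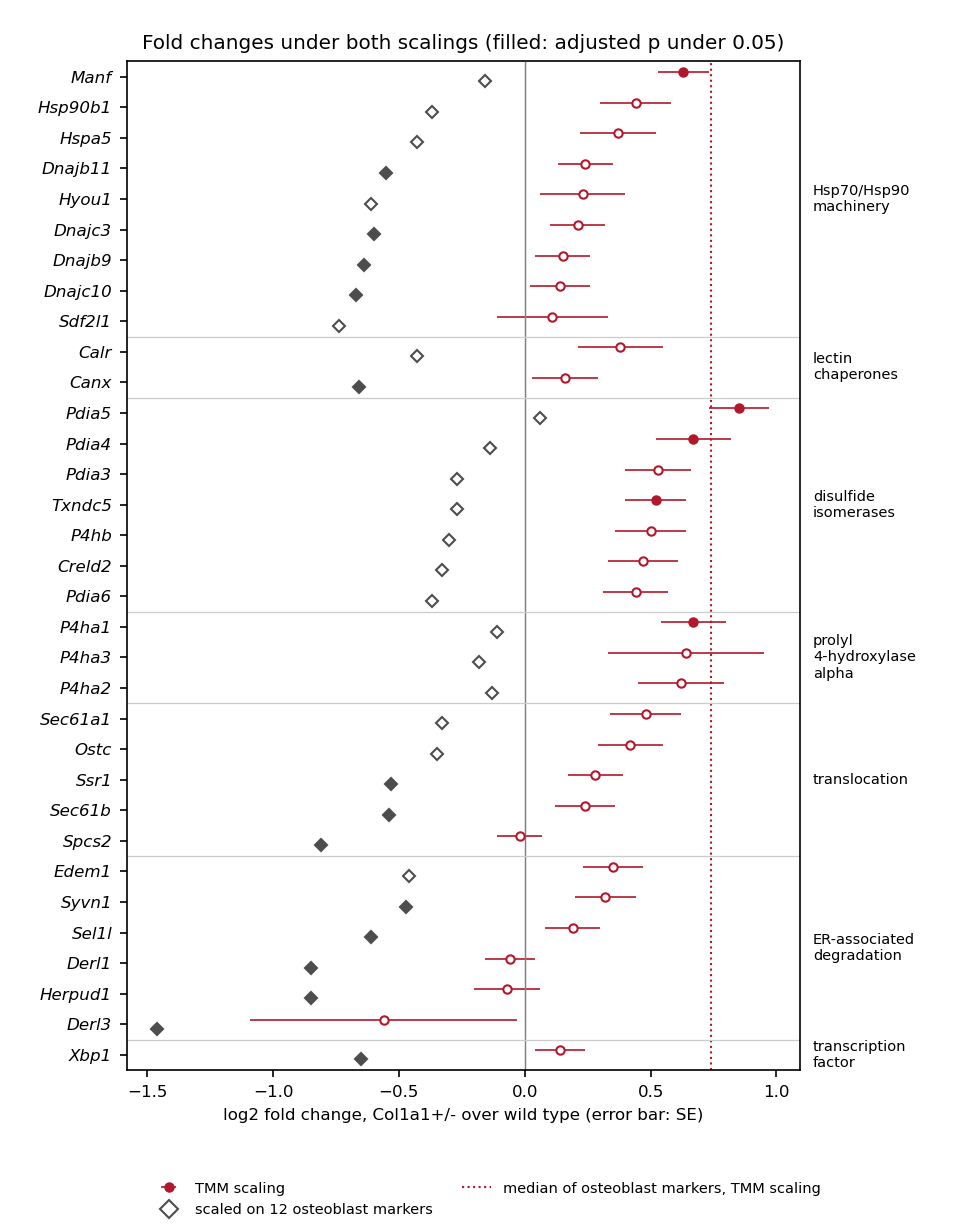
Log2 fold change of each gene, Col1a1+/- over wild type (x axis), with TMM scaling (red circles, whiskers are SE) and with libraries scaled on 12 osteoblast markers (grey diamonds); filled symbols have an edgeR adjusted p under 0.05, and the dotted line is the median osteoblast marker under TMM. With TMM 5 genes are filled and to the right of 0, with osteoblast scaling 14 are filled and to the left.

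Summed markers of other skeletal cells took more reads in Col1a1+/- as well. Of 8 chondrocyte markers 4 rose by edgeR (median 1.35), and the list took 0.267% to 0.388% of reads in Col1a1+/-, against 0.1% to 0.175% in wild type. Osteoclast markers took 0.758% to 0.961% in Col1a1+/-, against 0.518% to 0.629% in wild type (median 0.49, 0 of 9 called by edgeR, 5 higher at an unadjusted p under 0.05, 3 by DESeq2). Osteocyte markers took 0.181% to 0.242% in Col1a1+/-, against 0.111% to 0.167% in wild type (median 0.52, 0 of 11 tested genes called by edgeR, 2 higher at an unadjusted p under 0.05, 2 by DESeq2). Gja1 held the most reads of the osteocyte list, followed by Dmp1, so its sum leans on them. Gja1 was also the 1 gene of these 11 with every Col1a1+/- library above every wild-type one, which held for 14.0% of all genes. The part of the chondrocyte and osteoclast RNA in the ER gene results was not tested.

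Muscle RNA moved the opposite way: all 24 muscle markers had a fold change below 0, with a median of -1.57, and 8 fell by edgeR. With the muscle marker score as a covariate, edgeR called 0 genes in all and 0 members (2 higher at an unadjusted p under 0.05, where 3.31% of all genes were), and the median of the 33 fold changes was 0.04. The fold changes of the 5 called genes were then 0.64 for Pdia5, 0.57 for Manf, 0.42 for P4ha1, 0.24 for Txndc5 and 0.04 for Pdia4. The score ran from 7.002 to 8.685 in Col1a1+/- and from 9.494 to 10.546 in wild type without overlap, so genotype and muscle RNA cannot be told apart in this fit.

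Further genes of the same pathway numbered 82 in 8 lists, of which 8 were called higher and 0 lower by edgeR (5 lower at an unadjusted p under 0.05, and 3 by DESeq2), with a median log2 fold change of 0.23. The peptidyl-prolyl isomerases of the ER, which help procollagen fold around its prolines, had 4 of 8 called and a median of 0.67. Fkbp10, the collagen chaperone FKBP65, stood at 520.5, 458.1 and 535.2 CPM in Col1a1+/- and 221.8, 317.4 and 276.9 CPM in wild type (1.86-fold, edgeR adjusted p = 0.0276), and Ppib, cyclophilin B, was 1.55-fold higher (edgeR adjusted p = 0.0329).

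The oligosaccharyltransferase list had 2 of 10 called, Ddost (1.53-fold, edgeR adjusted p = 0.027) and Rpn2 (1.51-fold, 0.0333), both subunits of the enzyme that attaches glycans, and a median of 0.29. The further translocation list had 1 of 19, Ssr2 (1.49-fold, edgeR adjusted p = 0.0336), with a median of 0.15. Of 13 further isomerases and oxidases 1 rose, Prdx4, an ER peroxiredoxin (1.75-fold, edgeR adjusted p = 0.0307), with a median of 0.27.

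The lists of glucosidases (5 genes, median 0.31), further Hsp70 partners (7 genes, 0.27), ER stress sensors (4 genes, 0.18) and further degradation genes (16 genes, 0.07) had 0 called by edgeR. At an unadjusted p under 0.05 they had 3, 3, 0 and 4 genes higher and 0, 2, 0 and 2 lower, and by DESeq2 0, 1, 0 and 2 higher and 0, 1, 0 and 1 lower.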

How the data were processed

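The members and gene lists were chosen with earlier results of these data known. The deposited files hold raw, unscaled counts per gene. The submitters' processing notes name Trimmomatic 0.39, HISAT2 2.2.1 and SAMtools 1.20, with settings not given in the sources here. Counting was by featureCounts 2.0.3 over Ensembl 107 exons on GRCm39, per the file headers, with each mate counted as 1 read, no strand, and reads shared by several genes left out. Symbols were matched by gene ID (52073 of 56748). The listed genes Tusc3 and Ahsp were not analysed here.

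Genes passing filterByExpr were scaled by TMM (trimmed mean of M values) and tested with edgeR 4.0.16 in R 4.3.3 (quasi-likelihood F test, robust, genotype only, Benjamini-Hochberg adjusted p under 0.05 over all 18514 genes, two-sided); the procedure was tested on simulated data. Fold changes are Col1a1+/- over wild type, and the SE is the absolute log2 fold change over the square root of F. Ratios were compared by exact permutation. DESeq2 1.42.0 and limma 3.58.1 served as alternatives. Within a genotype, library pairs differed by 23.3 to 78.1 times the counting variance, so none was a copy. Every member is named; called members, and in each role the largest fold change and highest level, have values per library.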

Additional observations from a re-analysis of the deposited data

How the results depend on the processing

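The 5 members called higher were also called with RLE size factors, limma-voom (6 members), a mean of at least 1 CPM and no robust estimates. The count was 13 by DESeq2 (788 of all genes), 12 with no filter beyond 1 count in all (577), 8 with library totals (588), 1 with the replicate block (Pdia5; 37), and 0 with osteocyte scaling (6), osteoblast scaling (20), the muscle covariate (0) or the erythroid and neutrophil covariate (12), against 265 of all genes called higher as reported; with 1 library left out it was 0 to 12 by edgeR and by DESeq2, a setting chosen after the data were seen, 8, 12 and 7 without Col1a1+/- replicates 1, 2 and 3 and 15, 9 and 7 without wild-type replicates 1, 2 and 3. Members called lower numbered 0 except for 14 with osteoblast scaling. That scaling left 1 of 33 members above 0 (Pdia5), where TMM had 29. Of the genes called with TMM it turned Manf to -0.16, Pdia4 to -0.14, Txndc5 to -0.27 and P4ha1 to -0.11. Of those called lower with it, Dnajb9 turned to -0.64, Dnajb11 to -0.55, Dnajc3 to -0.60, Dnajc10 to -0.67, Canx to -0.66, Sec61b to -0.54, Ssr1 to -0.53, Sel1l to -0.61, Syvn1 to -0.47 and Xbp1 to -0.65. The other members that it turned below 0 were called in neither fit. Osteocyte scaling, with a median of all genes of -0.70, left 3 of 33 members above 0 (Pdia5, P4ha1 and P4ha2) where TMM had 29. It turned the called genes Manf to -0.05, Pdia4 to -0.06 and Txndc5 to -0.16. The causes were not tested. With 1 library left out, the ratio of P4ha2 to P4ha1 in Col1a1+/- over that in wild type ran from 0.917 to 1.05 and that of P4ha3 to P4ha1 from 0.737 to 1.19, both crossing 1; the other 4 ratios kept their direction, also when paired by number. Same-numbered samples did not deviate together (correlations 0.107, 0.041 and -0.122, against -0.198 to 0.194 for other pairs). With 3 libraries per genotype these correlations cannot decide whether the labels' numbers pair samples, and the labels do not say. Depth was lowest for Derl3, with 13 to 55 reads.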
